A study of Mus musculus with 3 samples.

Results

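Wide stretches of chromatin marked by trimethylation of lysine 27 on histone H3 (H3K27me3) and free of trimethylation of lysine 4 (H3K4me3) were described in mouse primordial germ cells at E11.5, midway through gestation. The regions were selected on the deposited positions of both marks: an H3K27me3 region had to be wider than 6 kb and share no base with any H3K4me3 region. Regions on X, on Y, on the mitochondrial genome and on chromosome 5 from 111 to 122 Mb were left out. This gave 654 regions, out of 2238 wide H3K27me3 regions on the sequence kept and 18731 H3K27me3 regions in the whole list. The sequence left out held 123 further wide regions without H3K4me3 in the stretch of chromosome 5 (of 177 wide regions there), 7 on X (of 35) and 0 on Y.

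Primordial germ cells are the embryonic cells that later form eggs and sperm. They were sorted by green fluorescence from pooled gonadal regions of embryos that carried the Oct4:GFP transgene, from transgenic B6 mice crossed to Swiss-Webster. Oct4 is a gene of pluripotent and germ cells, so the sort depends on the reporter being active in these cells alone, and markers of other cells were not examined. Chromatin immunoprecipitation and sequencing (ChIP-seq) was done with anti-H3K4me3 and with anti-H3K27me3, alongside an input, on 2 aliquots of 104000 and 97000 cells. The series has 3 samples in 3 groups of 1, each standing for 2 replicates, and each mark has 1 list of regions on build mm9 with no read counts. The depth behind a region is therefore unknown, no value has an error between replicates, and no test between conditions or classes of regions was possible.

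H3K27me3 is written by Polycomb repressive complex 2 at silent genes, often starting at CpG islands and spreading along the chromatin beside them. H3K4me3 is typical of active promoters and of CpG islands in general. Polycomb targets whose promoters carry both marks are called bivalent, and many are genes that direct development. H3K27me3 without H3K4me3 can lie over gene bodies, over sequence between genes or beside a bivalent promoter. Genes at the positions below were not assigned, because the gene table used here is of assembly GRCm38, and for the same reason no sequence is printed.

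The 654 regions covered 6.63 Mb, which was 11.45% of the H3K27me3 sequence kept and 22.8% of the sequence in wide H3K27me3 regions. Most were close to the lower limit of width. Their median width was 8.2 kb, with quartiles of 7 and 11 kb and a highest value of 46.4 kb. Only 205 were wider than 10 kb, 37 were wider than 20 kb, 7 were wider than 30 kb and 3 were wider than 40 kb. Just inside the limit stood 41 regions of 6.2 kb, such as chr1:39392201-39398400, chr2:71634201-71640400 and chr2:142408601-142414800. Just outside it stood 51 regions of 6 kb without H3K4me3, such as chr1:74961201-74967200, chr1:91854401-91860400 and chr1:191961001-191967000. Both sets had a median distance of 1.2 kb to the next H3K27me3 region. Their median distances to H3K4me3 were 9.4 kb inside and 9 kb outside the limit.

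Regions free of H3K4me3 were a smaller share of the widest regions. Of all wide regions, 29.2% had no H3K4me3 (95% Wilson interval 27.4 to 31.1%, counting error only). The share was 40.5% (37.1 to 44.1%) among regions over 6 and up to 8 kb. It was 24.8% (21.3 to 28.6%) over 10 and up to 15 kb, and 8.75% (4.30 to 17.0%) over 30 and up to 50 kb. Of the 28 regions over 50 kb 0 qualified, which allows a share of up to 10.7% by 3 counts of the total and 12.1% by the Wilson interval. Width and overlap are what the regions were selected on, and a wider region has more room to meet H3K4me3, so these shares describe the selection.

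The widest region, chr5:149258601-149305000, measured 46.4 kb and ended 1.8 kb from an H3K4me3 region on its right, while the nearest on its left was 46.6 kb away. The next, chr4:153920801-153962400, measured 41.6 kb and had H3K4me3 5.4 kb to its left and 11.6 kb to its right. In chr13:55076001-55117400, 41.4 kb wide, the nearest H3K4me3 region was 17.8 kb away and itself overlapped H3K27me3. The widest 3 thus each had H3K4me3 within 20 kb on at least 1 side.

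A touching case was chr2:93057201-93092800, 35.6 kb wide, whose right end met an H3K4me3 region of 800 bp with no gap and no shared base. The regions chr5:75349401-75383400 (34 kb) and chr9:122154201-122186800 (32.6 kb) lay 21 and 16.2 kb from H3K4me3. For chr15:25397601-25427800 (30.2 kb) the distance was 26.2 kb. By contrast, chr5:128691601-128721200 (29.6 kb) had no H3K4me3 for 366.6 kb on its left and 217 kb on its right. The list of 10 closed with chr15:78497401-78525800 (28.4 kb, 17.2 kb from H3K4me3) and chr2:19218601-19246800 (28.2 kb, 41.4 kb). The 10 widest therefore ran from touching H3K4me3 to standing 217 kb from it.

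**Figure D1:**
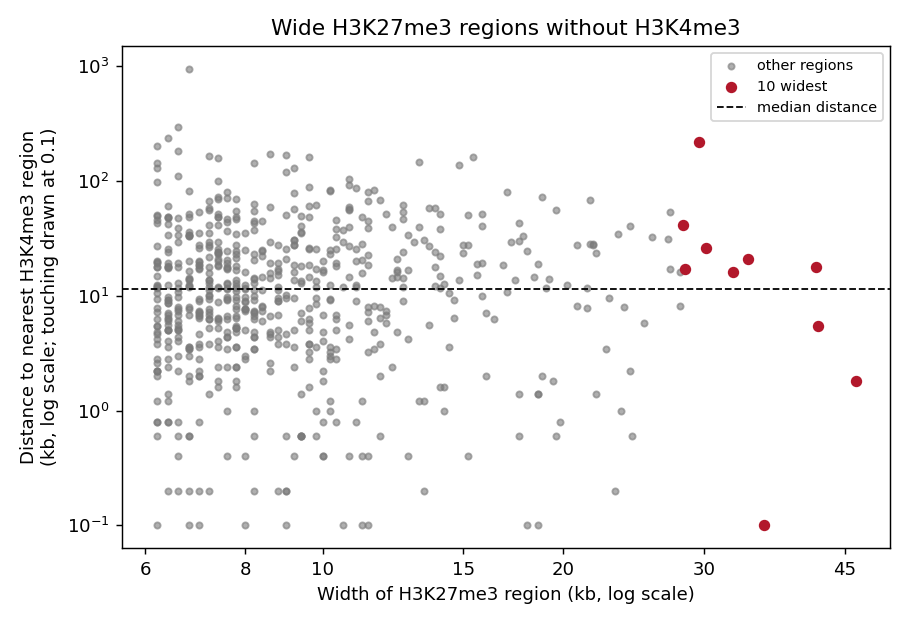
Each point is a wide H3K27me3 region without H3K4me3 (n = 654), with its width in kb on the horizontal axis and its distance to the nearest H3K4me3 region in kb on the vertical axis, both on log scales. The dashed line marks the median distance of 11.4 kb, and the 10 widest regions, in red, lie on both sides of it, from touching to 217 kb.

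The distance to the nearest H3K4me3 region was usually short. Its median was 11.4 kb, with quartiles of 4.4 and 25.4 kb. An H3K4me3 region lay within 1 kb of 64 regions (9.79%), within 10 kb of 315 (48.2%, 95% Wilson interval 44.4 to 52.0%) and within 50 kb of 583 (89.1%). Over 100 kb from any H3K4me3 were 21 regions (3.21%). Within 10 kb, 246 regions (37.6%) had H3K4me3 on 1 side only and 69 (10.6%) on both sides. This split was alike in the 7147 H3K27me3 regions of 1 to 6 kb without H3K4me3, at 35.7 and 9.77%, so it was not particular to the wide regions. On the farther side the median distance was 41.4 kb. The whole stretch without H3K4me3 around a region, its own width included, had a median of 66.4 kb and ran from 7.4 kb to 2053 kb.

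The distance to H3K4me3 rose little with width. The median distance was 9.8 kb for the 305 regions over 6 and up to 8 kb, 14 kb for the 130 over 10 and up to 15 kb, and 16.2 kb for the 37 over 20 kb. The quartiles of the last set, 5.8 and 28.4 kb, overlapped those of the first, 4.8 and 23 kb. Across the 654 regions the Spearman correlation of width and distance was 0.06, given as a description because neighbouring regions share their surroundings. H3K27me3 regions of 1 to 6 kb without H3K4me3 (n = 7147) lay at a like distance, with a median of 11.8 kb and quartiles of 4.6 and 28.2 kb. Of these narrower regions, 45.5% had H3K4me3 within 10 kb and 4.97% had none within 100 kb.

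At the near extreme, 11 regions touched H3K4me3 without sharing a base, and another 11 were 200 bp away. On the other side of that limit, 99 wide regions overlapped H3K4me3 by 200 bp in all and were left out. The first 5 of the touching regions in genome order were chr2:93057201-93092800, chr2:167721201-167739200 (18 kb), chr4:129420601-129426800 (6.2 kb), chr5:33802001-33820600 (18.6 kb) and chr6:100287201-100298400 (11.2 kb). The H3K4me3 regions they touched measured 800, 800, 2600, 2400 and 2000 bp. None of these 5 H3K4me3 regions overlapped H3K27me3 elsewhere, so the marks met end to end there in the lists. Of all 11 touching cases, 2 were with H3K4me3 regions that did overlap other H3K27me3.

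At the far extreme was chr5:51554401-51561200, 6.8 kb wide, with no H3K4me3 for 1104 kb on its left and 943 kb on its right. It was not a single call: another H3K27me3 region lay 2 kb away, and within 10-kb gaps 3 regions formed a run of 13.8 kb. Next came chr15:51123801-51130400 (6.6 kb wide, 294 kb from H3K4me3) and chr13:16789801-16796200 (6.4 kb wide, 235 kb). The region chr5:128691601-128721200, already named among the widest, was the fourth at 217 kb. The fifth, chr7:131463201-131469400, was 6.2 kb wide and 202 kb from H3K4me3, and no other H3K27me3 region lay within 329.4 kb. It was thus remote from both marks, whereas the other 4 had an H3K27me3 neighbour within 2 kb.

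Where H3K4me3 was near, it often lay on other H3K27me3. The nearest H3K4me3 region overlapped H3K27me3 for 422 of the 654 regions, a share of 64.5% (95% Wilson interval 60.8 to 68.1%). It did so for 67.6% of those with H3K4me3 within 10 kb and for 52.1% (40.7 to 63.3%) of the 71 with none within 50 kb. For H3K27me3 regions of 1 to 6 kb without H3K4me3 the share was 54.5% (53.4 to 55.7%). Of all 46216 H3K4me3 regions on the sequence kept, 18.3% overlapped H3K27me3. H3K4me3 near H3K27me3 is drawn from H3K27me3-rich surroundings, so the last value is a background and not a matched comparison.

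The regions lay close to other H3K27me3. The median gap to the nearest other H3K27me3 region was 1.2 kb, with quartiles of 0.6 and 2.2 kb. Another region lay within 1 kb of 312 (47.7%) and within 10 kb of 619 (94.6%, 95% Wilson interval 92.6 to 96.1%). A neighbour within 10 kb on both sides was found for 438 (67.0%). The next H3K27me3 was nearer than the nearest H3K4me3 in 548 cases (83.8%). The same held for 74.5% of the 7147 H3K27me3 regions of 1 to 6 kb without H3K4me3. Gaps of 200 or 400 bp, the first steps of the 200-bp grid of the lists, made up 51 of the 1308 sides (26 and 25). Gaps of 600 to 1000 bp made up 318 sides (24.3%), so short breaks were frequent just above 2 steps.

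The share with a neighbour within 10 kb was lower in the other classes in these lists, at 80.7% (78.4 to 82.9%) for the 1209 wide regions with 1 or 2 H3K4me3 regions and 80.3% (75.9 to 84.0%) for the 375 with 3 or more. For regions of 1 to 6 kb without H3K4me3 it was 76.8% (75.8 to 77.8%). On both sides, the shares were 41.6%, 37.6% and 37.4% in the same order, against 67.0%. Regions of 1 class can neighbour each other and so share their gaps, and these differences were not tested.

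**Figure D2:**
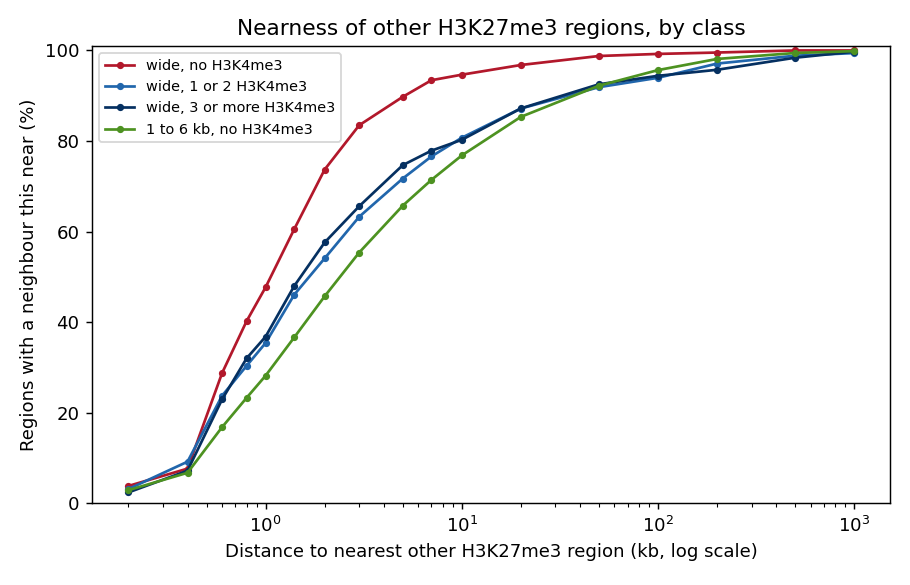
The vertical axis gives the percentage of regions of a class with another H3K27me3 region at or within the distance on the horizontal axis (kb, log scale), with 1 line per class. At 10 kb the wide regions without H3K4me3 (red) reach 94.6%, above the other 3 classes at 76.8 to 80.7%.

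H3K27me3 was plentiful in the wider surroundings as well. Within 50 kb of both ends, the median amount of other H3K27me3 was 30.1 kb (quartiles 13.7 and 49.6 kb) out of 100 kb. It was 15.2 kb for wide regions with 1 or 2 H3K4me3 regions, 13.6 kb for those with 3 or more, and 14.2 kb for regions of 1 to 6 kb without H3K4me3. At 3 to 5 kb beyond the ends, called H3K27me3 covered 48.0% of the sequence, against 30.2%, 32.3% and 24.1% in the same classes. At 75 to 100 kb it covered 19.6%, against 12.5%, 12.6% and 12.9%. The median amount of H3K4me3 within 50 kb was 2.8 kb beside these regions and 2.6 kb beside the 1 to 6 kb regions without it. It was 3.4 kb beside wide regions with 1 or 2 H3K4me3 regions and 4.4 kb beside those with 3 or more.

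**Figure D3:**
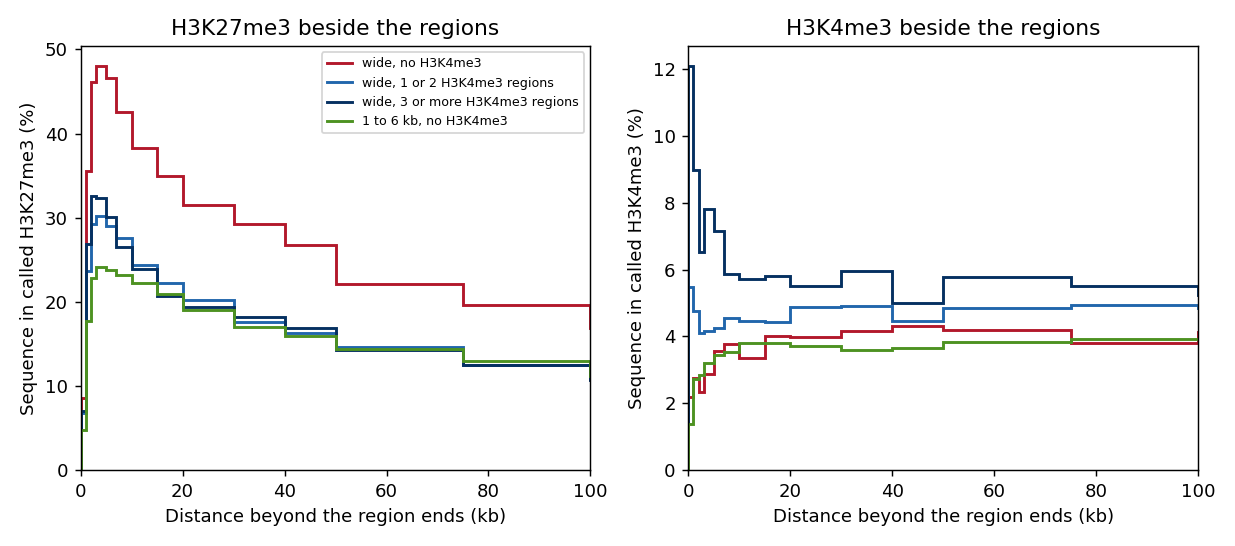
The percentage of sequence in called H3K27me3 (left) and H3K4me3 (right) is drawn against the distance beyond the region ends in kb, both ends together, with 1 line per class. H3K27me3 beside the wide regions without H3K4me3 (red) is highest in every step drawn. Their H3K4me3 stays between 2.19 and 4.30% and lies below both classes of wide regions with H3K4me3. Near the ends this follows in part from the selection, which excludes H3K4me3 that crosses a region's end. The 1 to 6 kb regions without H3K4me3 lie on both sides of the red line, at 1.39 against 2.19% over 0 to 1 kb and 2.85 against 2.32% over 2 to 3 kb.

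The fullest surroundings were found on chromosomes 8, 11 and 4. Around chr8:111282801-111295200 (12.4 kb wide), other H3K27me3 filled 93.4 of the 100 kb within 50 kb of its ends. Its run of regions with gaps of at most 10 kb held 4 regions over 128.8 kb and 11 H3K4me3 regions, the nearest 21 kb away. On chromosome 11, chr11:77630601-77640600 (10 kb) and chr11:77620201-77629000 (8.8 kb) stood 1.6 kb apart in a run of 8 regions with 18 H3K4me3 regions over 131.6 kb. On chromosome 4, chr4:153966201-153973200 (7 kb) and chr4:153811001-153822000 (11 kb) had 87.2 and 85.6 kb of other H3K27me3 within 50 kb. The runs around these 5 regions each spanned H3K4me3, in 2 to 18 regions.

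Whether a region counts as free of H3K4me3 together with its neighbours depended on the gap allowed. With H3K27me3 regions linked over gaps of at most 1 kb, 115 of the 654 (17.6%, 95% Wilson interval 14.9 to 20.7%) fell in a run with H3K4me3 on its H3K27me3. The number was 220 (33.6%) at 2 kb, 358 (54.7%) at 5 kb and 426 (65.1%, 61.4 to 68.7%) at 10 kb. These run counts cover the 654 only, so whether the shares are high or low is not known. Of the directly adjacent H3K27me3 regions within 10 kb, at least 1 carried H3K4me3 for 229 of the 654 (35.02%, 31.5 to 38.7%). This was near the 32.2% and 37.3% of wide regions with 1 or 2 and with 3 or more H3K4me3 regions. It was 27.4% for regions of 1 to 6 kb without H3K4me3. For 262 (40.1%) both adjacent regions lay within 10 kb and neither carried it, against 21.2, 14.7 and 21.8% in the same order. Neighbours within 10 kb on both sides were themselves more frequent here (67.0%, against 41.6, 37.6 and 37.4%). Over 10-kb gaps the 469 runs had a median of 5 H3K27me3 regions and a median span of 34 kb, with quartiles of 20.8 and 64.4 kb. A region of the 654 lay, at the median, in a run of 6 regions and 49.3 kb, since long runs hold several of them. Within such runs of 2 or more regions, 280 of 619 regions (45.2%) were the widest of their run and 181 (29.2%) stood at its edge. Selection on width favours the former, and neither share was computed for other classes.

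Some runs held no H3K4me3 anywhere. Of the 469 runs over 10-kb gaps, each with at least 1 of the 654, 289 spanned H3K4me3 and 180 did not. Of these 180, 35 were a single region and 145 linked 2 or more regions, with a median span of 25.2 kb and a highest span of 68.8 kb. The run with the most H3K27me3 and no H3K4me3 was chr5:75333401-75383400, where 4 regions covered 47.6 of 50 kb. It was followed by chr8:123441801-123510200 (47.4 kb of H3K27me3 in 7 regions) and chr5:128658201-128727000 (45 kb in 9). Next were chr12:73373401-73442200 (42.8 kb in 9) and chr11:100035001-100077400 (39.4 kb in 3). The nearest H3K4me3 to these 5 runs lay 5, 30, 211.2, 35.2 and 27.6 kb away, so the run with the most H3K27me3 was also the nearest to H3K4me3. These runs were picked after their values were seen.

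With gaps of at most 1 kb, the longest domain without H3K4me3 was chr15:25397601-25468000. It spanned 70.4 kb, of which 96.9% was H3K27me3, in 4 regions of 30.2, 13.6, 7.4 and 17 kb that were all among the 654. H3K4me3 lay 26.2 kb to its left and 83.4 kb to its right. The next were chr5:149253401-149305000 (51.6 kb), chr5:75335601-75383400 (47.8 kb), chr13:55073401-55117400 (44 kb) and chr4:153920801-153962400 (41.6 kb, a single region). Of 512 such domains, 170 joined 2 or more H3K27me3 regions, 24 held 2 or more of the 654 and 12 exceeded 30 kb.

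Many of the regions had a fellow region close by. Another of the 654 lay within 100 kb of 371 (56.7%, 95% Wilson interval 52.9 to 60.5%), within 50 kb of 322 and within 500 kb of 476. Such counts depend on how many regions are selected. They were not made for other classes, so whether these shares are high is not known. Linked over distances of at most 100 kb, the 371 formed 126 groups, of which 70 were pairs, 27 had 3 regions and 16 had 4. The other 13 groups had 5 to 11 regions, and 283 regions stood alone. The median span of the 126 groups was 57.9 kb. In 51 of the 126 no H3K4me3 lay within the span, and 52 also held a wide H3K27me3 region with H3K4me3.

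The group with the most regions was chr4:153689401-154269600, with 11 regions of 6.4 to 41.6 kb in 580.2 kb. Its span held 49 H3K27me3 regions covering 58.2% and 30 H3K4me3 regions covering 3.93%, and 5 other wide H3K27me3 regions there carried H3K4me3. On chromosome 15, chr15:25397601-25613400 held 9 regions in 215.8 kb, which by themselves covered 55.8% of the span. H3K4me3 covered only 1.39% of it, in 3 regions, all to the right of the 70.4-kb domain described above. The densely marked group of chromosome 8, chr8:122862801-123149400, also had 9 regions (286.6 kb), but 18 H3K4me3 regions covering 7.12% lay among them.

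Next came chr4:136440601-136787800, where 8 regions shared 347.2 kb with 3 H3K4me3 regions covering 0.922%, while H3K27me3 covered 73.6%. The fifth, chr19:37778801-37985800, had 7 regions in 207 kb and 2 H3K4me3 regions. The 5 groups therefore ranged from 2 to 30 H3K4me3 regions in their spans. Among groups with no H3K4me3 in the span, chr16:35196201-35296400 had the most regions, with 5 of 6.2, 7.4, 13, 7.6 and 11.4 kb in 100.2 kb. H3K27me3 covered 64.7% of that span, and the first H3K4me3 lay 2.2 kb beyond its left end and 66.4 kb beyond its right end. This group was picked after the values were seen.

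**Figure D4:**
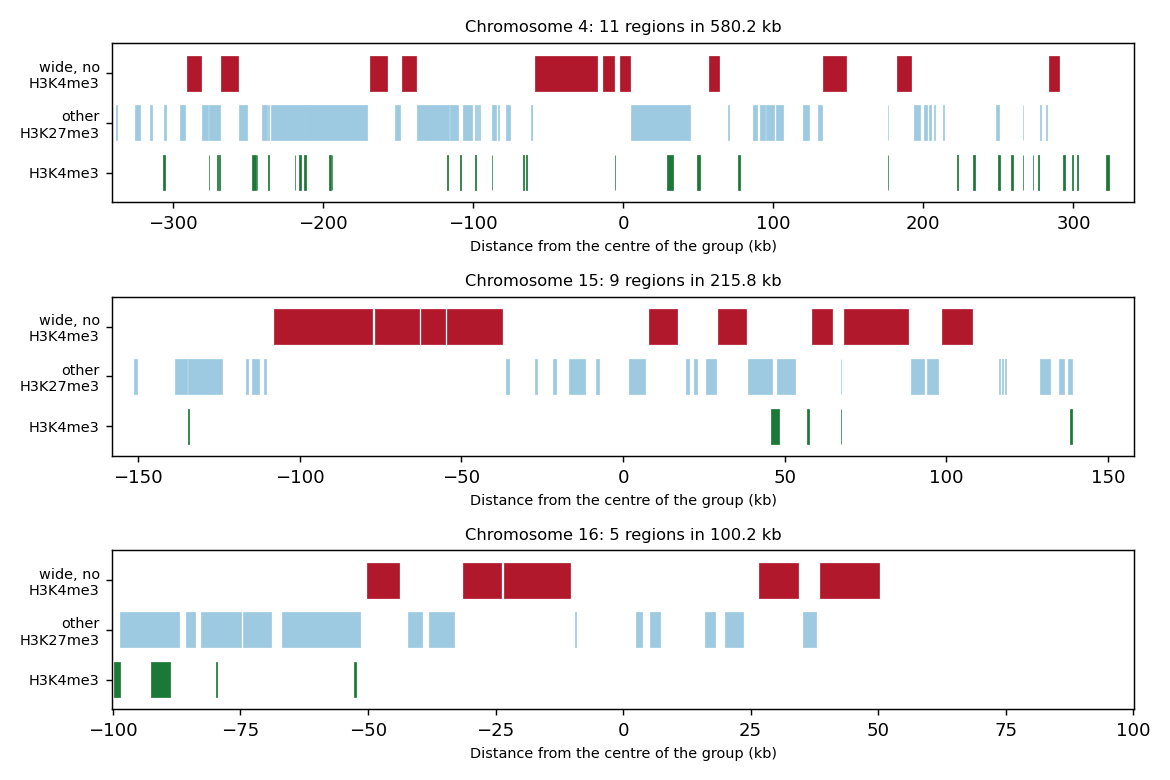
Positions in kb from the centre of 3 groups (chromosomes 4, 15 and 16) are drawn with 50 kb on either side: wide H3K27me3 regions without H3K4me3 (red), other H3K27me3 (blue) and H3K4me3 (green). The chromosome 4 group is crossed by 30 H3K4me3 regions, the left side of the chromosome 15 group is a nearly unbroken block of 4 regions, and the chromosome 16 group has H3K4me3 only outside its span.

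Isolated regions were few. No other H3K27me3 lay within 10 kb of 35 regions (5.35%, 95% Wilson interval 3.87 to 7.35%). These had a median width of 7.6 kb, against 8.2 kb over all 654. The highest width was 15 kb, against 46.4 kb, but 35 regions give fewer chances of a high value than 654. For the 35, the distance to H3K4me3 had a median of 18.4 kb, with quartiles of 9.6 and 38.7 kb. In 5 cases no other H3K27me3 lay within 100 kb. Besides chr7:131463201-131469400 these were chr6:28393401-28402600 (9.2 kb wide, 302 kb to the next), chr14:27383801-27395200 (11.4 kb, 224 kb), chr3:32846601-32854400 (7.8 kb, 185.4 kb) and chr3:148808201-148814800 (6.6 kb, 136.8 kb). The chromosome 14 region was nevertheless only 3.2 kb from H3K4me3, and the chromosome 6 region 18.4 kb. Regions far from other H3K27me3 were thus not all far from H3K4me3.

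All 19 autosomes carried such regions, from 11 on chromosome 3 to 66 on chromosome 4. As a share of the wide regions of a chromosome, they ranged from 15.3% on chromosome 3 (11 of 72, 95% Wilson interval 8.75 to 25.3%) to 38.5% on chromosome 9 (50 of 130, 30.5 to 47.0%). The interval of chromosome 3 lay below those of chromosomes 4, 9, 14 and 15. The interval of chromosome 9 also lay above those of chromosomes 2 (22.6%, 17.1 to 29.3%) and 10 (18.0%, 11.4 to 27.2%), and all other pairs of intervals overlapped. Regions in 1 group are not independent, so the true uncertainty is wider than these intervals. All pairs of chromosomes were compared with no allowance for their number, so these separations are not a test of a difference. The narrowest was between chromosomes 3 and 14, where 1 interval ended at 25.3% and the other began at 25.6%. On chromosome 3 none of the 11 had a fellow region within 100 kb, whereas 46 of the 66 on chromosome 4 and 20 of the 26 on chromosome 19 did. The median distance to H3K4me3 ran from 7.4 kb on chromosome 3 to 17.6 kb on chromosome 18.

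**Figure D5:**
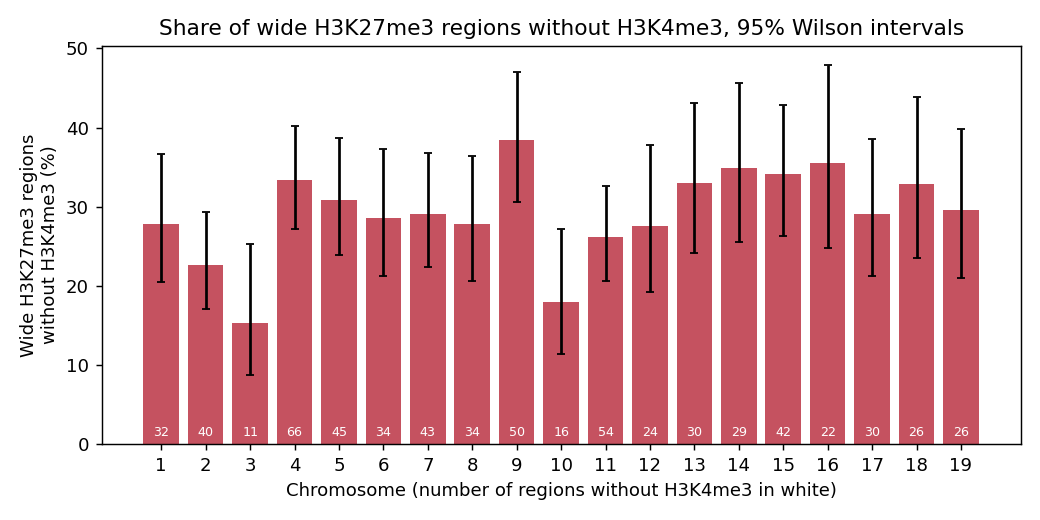
Bars give the percentage of the wide H3K27me3 regions of each autosome that overlap no H3K4me3 region, with 95% Wilson intervals as error bars and the number of such regions in white. Chromosome 5 is drawn without its stretch from 111 to 122 Mb. On the sequence kept, chromosomes 3 (15.3%) and 10 (18.0%) are lowest and chromosome 9 (38.5%) is highest.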

How the data were processed

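ChIP-seq of H3K4me3 and H3K27me3 and an input were made from sorted primordial germ cells. For each mark the authors deposited a single region list, whose only values are start and end positions in bp. The submitters' processing notes name Bowtie 0.12.7 and mm9. The file names call the regions contiguous ChromHMM regions. Which ChromHMM version and settings were used, whether the input entered, and how replicates were combined is not given in the sources used here. All positions lay on a 200-bp grid. With 1 list per mark no replicate error exists, and regions are not replicates, so values are descriptions with no test. The input was not analysed here.

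Overlap was at least 1 bp, gaps ran between region ends, touching regions had a gap of 0, and printed starts count from 1. Amounts beside a region count every region of the list, and flanks of neighbouring regions may overlap. Both the selected regions and their classes were chosen with earlier results of these data known. Regions named were the 10 widest, the 5 nearest to and farthest from H3K4me3, the 5 with most H3K27me3 within 50 kb, the 3 on each side of the width limit and the 5 largest groups. Others were chosen after their values were seen, namely the runs and domains without H3K4me3, the chromosome 16 group and the regions with no H3K27me3 within 100 kb. Percentages have 95% Wilson intervals and treat regions as independent. The functions for overlaps, gaps and linking were tested on simulated data. Alternatives changed the width limit, the H3K4me3 regions counted, joining, distances and chromosomes. The gene lists and cell type markers set for an mm9 annotation were not used here. Calculations ran in Python 3.11.15 with scipy 1.17.1, numpy 2.4.6 and pandas 2.3.3, and plots in matplotlib 3.10.9.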

Additional observations from a re-analysis of the deposited data

How the results depend on the processing

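Across 6 results the alternatives gave 58 values, of which 39 stayed alike and 19 moved. Alike meant within 1.5 times the reported count, or within the 95% binomial interval of the reported median or percentage. Counts, distances and shares have no direction here, so no value could be labelled as reversed. No chromosome held more than 66 of the 654 regions, or more than 46 of the 371 with a fellow region within 100 kb. Leaving 1 out could therefore not move either count past the limit of 1.5 times, so these values add nothing to the tally. The width limit mattered most. With limits of 5, 8 and 10 kb in place of 6 kb the regions numbered 946, 349 and 205, against 654. Of these only the count at 5 kb was labelled alike. Regions with a fellow region within 100 kb numbered 586 with a limit of 5 kb, 161 with 8 kb and 72 with 10 kb, against 371. The share of wide regions without H3K4me3 became 32.8%, 23.5% and 19.6% with these limits, against 29.2%. With a limit of 10 kb the median distance to H3K4me3 became 14.2 kb (reported 11.4 kb) and the share with an adjacent H3K27me3 region carrying H3K4me3 31.2% (reported 35.02%). Fewer regions enter under higher limits by construction. Without H3K4me3 regions of 200 bp the regions numbered 756, which was labelled alike. The share of wide regions, the median distance to H3K4me3 and the adjacent share were then 33.8%, 13.4 kb and 28.7%. With H3K4me3 within 1 kb also excluding a region, they were 26.4%, 12.7 kb and 31.2% (31.186%). Joining H3K27me3 regions under 1 kb apart raised the median distance to other H3K27me3 from 1.2 to 1.8 kb, which follows from removing short gaps. Keeping the stretch of chromosome 5 gave a share of 32.2%, and counting neighbours within 50 kb gave 41.1%. Other causes were not tested. Leaving out each chromosome in turn gave 588 to 643 regions, 28.7 to 29.8% of wide regions, 325 to 371 with a fellow region, distances of 10.9 to 11.6 kb and 1.2 kb, and 34.2 to 35.8% with an adjacent region carrying H3K4me3. No replicate could be left out, since each mark has 1 list, and the alternatives on genes were not run. Without read counts, the depth that limits which regions were called is unknown.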

Other observations

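Breaks between these regions and the next H3K27me3 were searched for H3K4me3. Of 1057 region sides with the next H3K27me3 region within 10 kb, 53 (5.01%, 95% Wilson interval 3.85 to 6.50%) had H3K4me3 starting before it was reached. The same count was not made for other classes, so whether this share is low is not known. H3K4me3 that crosses a region's end was also excluded by the selection. H3K4me3 regions of a single 200-bp step were the nearest H3K4me3 for 162 of the 654 regions, a share of 24.8% (21.6 to 28.2%), against 25.7% of all H3K4me3 regions kept. The nearest H3K4me3 region had a median width of 600 bp, against 800 bp over all H3K4me3 regions kept. It was also 600 bp for H3K27me3 regions of 1 to 6 kb without H3K4me3, so this was not particular to the wide regions. Regions linked over 10-kb gaps into the runs with most of these regions lay on chromosomes 15 (chr15:25367001-25623800, 9 in 256.8 kb), 4 (chr4:136436001-136787800, 8 in 351.8 kb) and 8 (chr8:122900601-123161600, 8 in 261 kb), where H3K27me3 covered 69.2, 73.3 and 74.8% of the span beside 4, 3 and 18 H3K4me3 regions.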
